A study of Homo sapiens with 6 samples.

Results

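GR binding was examined around 7 human genes that glucocorticoids are known to use against inflammation: DUSP1, NFKBIA, TNFAIP3, ZFP36, TNIP1, IRAK3 and ANXA1. For each gene a window was set on the hg19 build, made of the gene body and about 50 kb on each side, and every called peak whose centre fell in a window was counted. The windows ran over 172.14 to 172.25 Mb of chromosome 5 for DUSP1, 35.82 to 35.93 Mb of chromosome 14 for NFKBIA, 138.13 to 138.26 Mb of chromosome 6 for TNFAIP3 and 39.84 to 39.95 Mb of chromosome 19 for ZFP36. Those of TNIP1, IRAK3 and ANXA1 ran over 150.35 to 150.52 Mb of chromosome 5, 66.53 to 66.70 Mb of chromosome 12 and 75.71 to 75.84 Mb of chromosome 9. The 7 windows cover 930 kb and held 102 of the 116356 peaks called in the whole series. Peaks of the dexamethasone lists that overlapped were merged into sites, and 35 of the 43713 sites of the series lay in the windows.

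The peaks come from ChIP-seq for the glucocorticoid receptor (GR), a method that sequences DNA crosslinked to a protein and recovered with an antibody. The 4 groups were compared, each of 1 immunoprecipitated sample with 3 numbered peak lists: the MR/GR cell with dexamethasone, the GR cell with dexamethasone, the MR/GR cell with vehicle and the GR cell with vehicle. Both are stable lines built for the study in the osteosarcoma line U-2OS, and the mineralocorticoid receptor (MR) was present beside GR in the MR/GR cell. Dexamethasone, a synthetic glucocorticoid, was given at 100 nM for 2 hr, and DMSO was the vehicle. Each receptor combination was 1 line, so a difference between the receptors and a difference between the lines cannot be told apart. The dexamethasone lists held 3713 to 10459 peaks in the MR/GR cell and 26191 to 37650 in the GR cell, and the vehicle lists held 11 to 132 in the MR/GR cell and 122 to 238 in the GR cell. Read depth is unknown and the lists carry no peak height, so a place with no listed peak may be unbound or bound too weakly to be called. Nothing in the labels says that the 3 lists of a group are separate cultures. The p-values therefore speak only for these lists, and the variation among the lists may be technical.

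GR is held in the cytoplasm by chaperones until a glucocorticoid binds it, and it then enters the nucleus and binds DNA, often at distal enhancers that carry a palindromic glucocorticoid response element. Part of the anti-inflammatory action comes from genes that GR activates and whose products cut off signals from Toll-like, interleukin-1 and TNF receptors to the kinase and NF-kB pathways. Several of these genes are also induced by inflammatory signals through elements at their promoters, so that they serve as feedback brakes with or without the hormone.

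The promoters of the genes with such an element are shown first, to give the elements that lie at the starts of these genes. RefSeq promoters of the GRCh38.p14 build were found for 7 of the 7 genes, 8 promoters in all, since TNIP1 has a pair. The 250 bases before each start were searched on both strands for the kappa-B decamer consensus that NF-kB binds, the cyclic AMP response element TGACGTCA, and the glucocorticoid response element. The last 150 of those bases are printed for 4 genes, 5′ to 3′ on the strand of the gene, with the matched element in capitals. They lie at chr5:172771196-172771345 (minus strand) for DUSP1, chr14:35404750-35404899 (minus strand) for NFKBIA, chr6:137867109-137867258 (plus strand) for TNFAIP3 and chr5:151081035-151081184 (minus strand) for TNIP1.
DUSP1: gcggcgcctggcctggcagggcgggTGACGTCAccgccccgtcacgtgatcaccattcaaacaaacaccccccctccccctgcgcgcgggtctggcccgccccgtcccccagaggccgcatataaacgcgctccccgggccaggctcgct
NFKBIA: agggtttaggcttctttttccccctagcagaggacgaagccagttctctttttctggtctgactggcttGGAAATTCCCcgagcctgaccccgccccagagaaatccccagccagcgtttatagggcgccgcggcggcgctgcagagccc
TNFAIP3: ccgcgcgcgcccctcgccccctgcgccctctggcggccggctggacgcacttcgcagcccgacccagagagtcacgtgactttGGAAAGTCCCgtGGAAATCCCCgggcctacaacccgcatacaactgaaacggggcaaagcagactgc
TNIP1: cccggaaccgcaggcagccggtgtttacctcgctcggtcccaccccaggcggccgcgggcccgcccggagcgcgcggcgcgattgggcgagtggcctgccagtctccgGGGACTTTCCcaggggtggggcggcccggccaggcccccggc

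The kappa-B consensus matched at 1 place before NFKBIA, 2 before TNFAIP3 and 1 before TNIP1, so 3 of the 7 genes held it, and 9.96% of the 35116 RefSeq promoters of that length did. Only the printed promoter of the TNIP1 pair matched, so the first count is by gene and the share is by promoter. The cyclic AMP element matched before DUSP1 alone among the 7 genes, and 1.65% of all promoters held it. The full palindromic response element (AGAACA, 3 spacer bases and its inverted copy) matched before none of the 7 genes and in 1 of the 35116 promoters, and its relaxed core (NACA, 3 spacer bases and the inverted copy) matched before none of the 7 and in 4.57% of all. The AGAACA part alone matched before none of the 7 and in 12.4% of all. None of the matches overlapped a match of another element, and the lack of a match says only that the letters are not in these bases. A match is a description of letters and not a bound site. Start positions in hg19 were not used here, so whether a peak covers any of these stretches was not examined, and the sequences of the peaks themselves were not read.

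With vehicle, no GR peak was called in any of the 7 windows in either line. The MR/GR cell had 0 of 183 vehicle peaks there, which allows a share of up to 1.64% of its peaks, and the GR cell had 0 of 588, which allows up to 0.510%. These limits cover counting error only, and the windows are 930 kb of the 3091 Mb that the tiles described next span. After dexamethasone the windows held 6, 12 and 7 peaks in lists 1 to 3 of the MR/GR cell, and 31, 25 and 21 in those of the GR cell. Every dexamethasone list of either line therefore had peaks at these genes and no vehicle list did. The vehicle lists were short, and their limits of 1.64% and 0.510% lie above the mean shares of the dexamethasone lists. Those shares were 0.127% in the MR/GR cell and 0.0811% in the GR cell. Vehicle lists with the same shares could also have no peak here, so the empty windows do not show whether ligand was needed at these genes.

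In the MR/GR cell, peak counts were higher in every dexamethasone list than in every vehicle list at 3 of the 7 windows, DUSP1, NFKBIA and ZFP36 (exact permutation p = 0.1 each, two-sided). The genome was cut into 130 kb tiles (the median window length). Of the tiles with a peak in this line, a condition that the TNIP1 window did not meet, 36.7% did the same. In the GR cell this held at 7 of the 7 windows, with p = 0.1 at each (exact permutation test, two-sided), and at 75.6% of the tiles with a peak. Neither share was taken among denser tiles. A p of 0.1 is the smallest that 3 lists against 3 allow, so none of the 21 tests of single windows could pass 0.05, and no adjustment was made. Since all vehicle values were 0, these calls say only that each dexamethasone list of the line had a peak in the window. For the same reason, the difference between the responses of the lines equals the difference between their dexamethasone values.

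**Figure D1:**
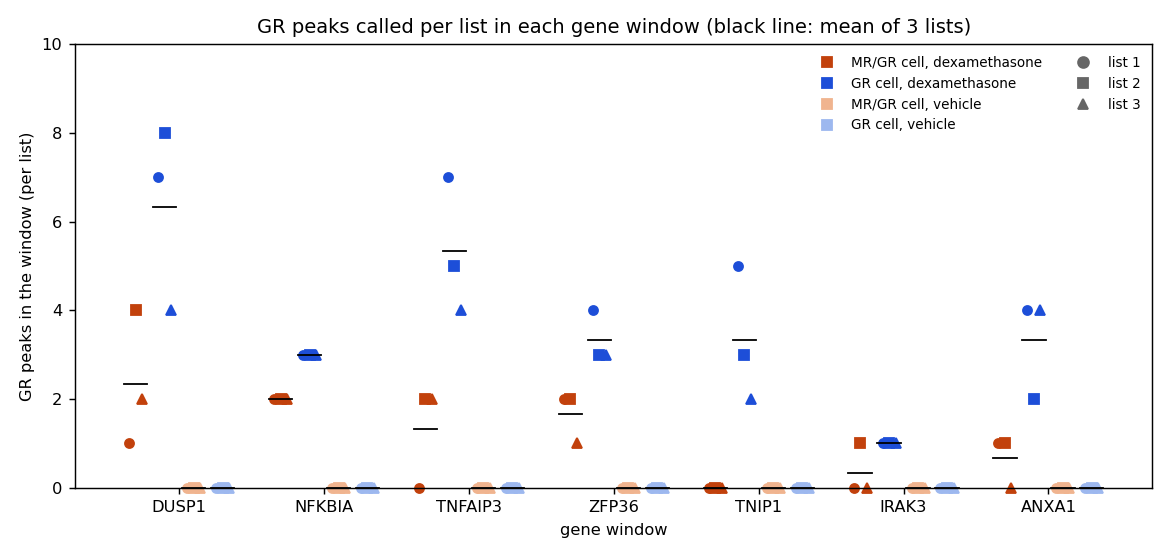
GR peaks per list (vertical axis, number of peaks) in each gene window (horizontal axis), for the MR/GR cell and the GR cell with dexamethasone and with vehicle. Marker shapes are lists 1 to 3 and black lines are means; all vehicle points lie at 0, and the dexamethasone points of the MR/GR cell lie at or below those of the GR cell, sharing a value at DUSP1 and at IRAK3.

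NFKBIA encodes the inhibitor that holds NF-kB in the cytoplasm, and at the window size used it kept most of its GR peaks in the MR/GR cell. Its window had 2, 2 and 2 dexamethasone peaks in lists 1 to 3 of the MR/GR cell, and 3, 3 and 3 in those of the GR cell. The counts did not vary within either line and the lines did not overlap (difference -1, exact permutation p = 0.1, two-sided). The same pair of sites was called in all 6 lists: chromosome 14, 35873034 to 35873457, in the 10 kb at the middle of the window, and 35860015 to 35860438, in the flank. Farther out on the same side, the site at 35843482 to 35843942 was called in the 3 lists of the GR cell alone. With 25 kb taken off each end of the window, that site fell outside and the difference between the lines was 0. With 50 kb added at each end, the difference was -2.

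DUSP1 encodes a nuclear phosphatase that switches off the p38 and JNK kinases, and its window had the highest mean density of the 7 in either line at the window size used. It had 1, 4 and 2 dexamethasone peaks in lists 1 to 3 of the MR/GR cell, and 7, 8 and 4 in those of the GR cell. MR/GR list 2 and GR-cell list 3 had the same count, so the lines overlapped (2.33 ± 1.53 in the MR/GR cell against 6.33 ± 2.08 in the GR cell, mean ± SD, n = 3 lists each; exact permutation p = 0.2, two-sided). The GR-cell mean was 5.76 ± 1.89 peaks per 100 kb (SD), and 0.311% of the 23791 tiles were as dense or denser in that line. For the MR/GR cell the mean was 2.12 ± 1.39 per 100 kb, and 1.02% of the tiles were as dense or denser. With 25 kb taken off each end of the windows, the DUSP1 difference between the lines was -1 instead of -4 (exact permutation p = 0.7, two-sided), and DUSP1 and ZFP36, in windows of equal length, had the same GR-cell mean of 3.33 peaks.

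Of 9 sites in the DUSP1 window, 1 was called in all 6 lists. It lay at chromosome 5, 172199337 to 172199760, inside the 10 kb at the middle of the window, and its peaks had centres within 41 bp of one another over the 6 lists. A site 3.22 kb away, at 172202590 to 172202962, was in MR/GR list 2 and GR-cell lists 1 and 2. The site at 172222381 to 172222818 was in MR/GR list 2 and all 3 GR-cell lists, and that at 172160830 to 172161294 was in the 3 lists of the GR cell alone. The site at 172216929 to 172217288 went the other way: it was in MR/GR lists 2 and 3 and in no GR-cell list, and it was the only one of the 35 sites with at least 2 MR/GR-cell lists and no GR-cell peak.

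ZFP36 encodes tristetraprolin, a protein that binds AU-rich elements of cytokine mRNAs and speeds their decay. Its window had 2, 2 and 1 dexamethasone peaks in lists 1 to 3 of the MR/GR cell, and 4, 3 and 3 in those of the GR cell, without overlap (difference -1.67, SE 0.47, exact permutation p = 0.1, two-sided). Its 4 sites were centred between -1.87 kb and 8.24 kb from the middle of the window. The site at chromosome 19, 39900169 to 39900594, was in all 6 lists, while its neighbour 1.94 kb away, at 39902068 to 39902513, and the site at 39892919 to 39893379 were each in the 3 lists of the GR cell alone. At 39903068 to 39903421, 0.940 kb beyond the neighbour, a peak was called in MR/GR lists 1 and 2 and in GR-cell list 1. The 3 neighbouring sites from 39900169 to 39903421 were thus called in 3 different sets of lists. The ZFP36 window is gene-rich: RefSeq (GRCh38.p14, names only) has 6 other coding genes within 50 kb of ZFP36, among them PLEKHG2, MED29 and PAF1, so a peak there need not belong to ZFP36.

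TNFAIP3 encodes A20, a ubiquitin-editing enzyme that shuts down NF-kB signalling after TNF and Toll-like receptor activation. Its window had 0, 2 and 2 dexamethasone peaks in lists 1 to 3 of the MR/GR cell, and 7, 5 and 4 in those of the GR cell, without overlap (1.33 ± 1.15 in the MR/GR cell against 5.33 ± 1.53 in the GR cell, mean ± SD, n = 3 lists each; exact permutation p = 0.1, two-sided). MR/GR list 1, the shortest treated list, had no peak in it. In the MR/GR cell the peaks of lists 2 and 3 fell at the same places, chromosome 6, 138132508 to 138132934 near the left edge, and 138194446 to 138194869 at the middle of the window, and all 3 GR-cell lists had peaks at both. The sites at 138182733 to 138183157 and 138209523 to 138209946 were each in the 3 lists of the GR cell alone.

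TNIP1 encodes a ubiquitin-binding partner of A20. It was the one gene of the 7 with no peak in any MR/GR-cell list: its window had 0, 0 and 0 dexamethasone peaks in lists 1 to 3 of the MR/GR cell, and 5, 3 and 2 in those of the GR cell (exact permutation p = 0.1, two-sided). Of the tiles with a peak in all 3 GR-cell lists, 49.2% had none in any MR/GR-cell list, so an empty window in this line was common. Of the 6 TNIP1 sites, 5 lay in the 70 kb at the middle of the window, and 1, at chromosome 5, 150438679 to 150439102, was in all 3 GR-cell lists. The sites at 150451801 to 150452267 and 150460270 to 150460693 were in 2 GR-cell lists each, and that at 150434263 to 150434616 was in list 1 alone. GPX3 and ANXA6 are the coding genes that RefSeq places within 50 kb of TNIP1.

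ANXA1 encodes annexin A1, a phospholipid-binding protein whose release limits neutrophil recruitment. Its window had 1, 1 and 0 dexamethasone peaks in lists 1 to 3 of the MR/GR cell, and 4, 2 and 4 in those of the GR cell, without overlap (difference -2.67, SE 0.75, exact permutation p = 0.1, two-sided). None of its 4 sites lay in the 30 kb at the middle of the window. The site in most lists was chromosome 9, 75830815 to 75831272, 8.98 kb inside the right edge, in MR/GR lists 1 and 2 and in 3 GR-cell lists. The site at 75794256 to 75794679 was in 3 GR-cell lists, those at 75748792 to 75749301 and 75753976 to 75754409 were in GR-cell lists 1 and 3, and none of these 3 was in an MR/GR-cell list. The right-edge site was the only one of the 4 in the MR/GR cell, and with 25 kb taken off each end the MR/GR cell had no ANXA1 peak.

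IRAK3 encodes an inactive kinase homologue that blocks signalling from interleukin-1 and Toll-like receptors. Its window was the sparsest in the GR cell, with 0, 1 and 0 dexamethasone peaks in lists 1 to 3 of the MR/GR cell, and 1, 1 and 1 in those of the GR cell (exact permutation p = 0.4, two-sided). The GR-cell density of 0.588 peaks per 100 kb was below the median over tiles, 0.769, and their mean, 1.02. The lines had no site in common there: the GR-cell site was at chromosome 12, 66657693 to 66658116, and the MR/GR list 2 peak was at 66563589 to 66563872. They were 94.2 kb apart, and neither lay in the 70 kb at the middle of the window. RefSeq places TMBIM4 and HELB within 50 kb of IRAK3.

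**Figure D2:**
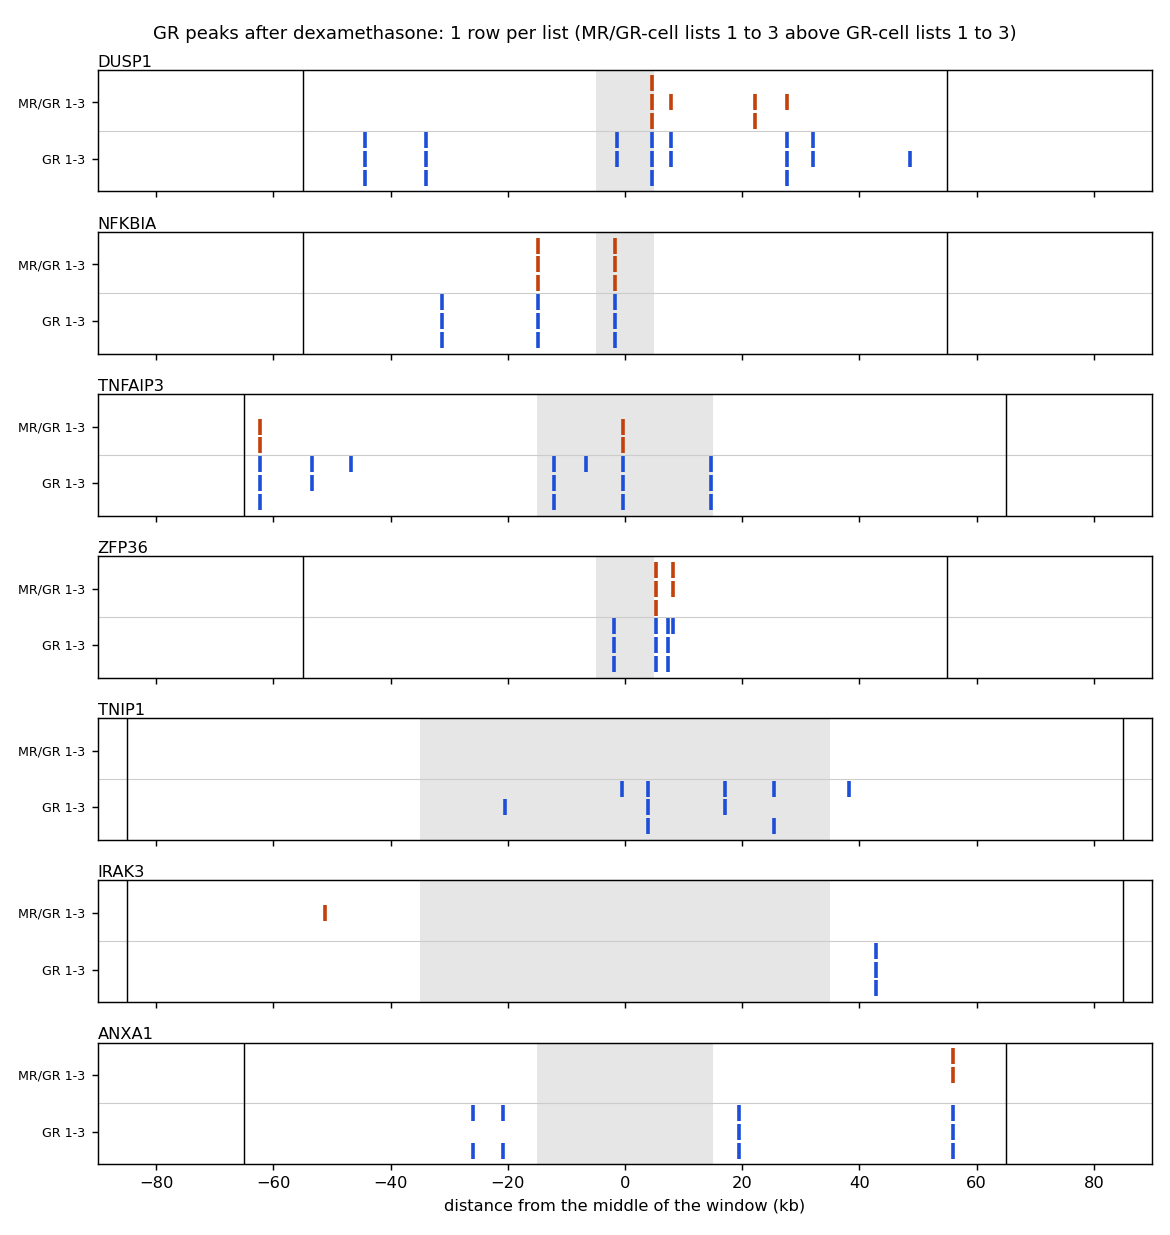
Position of each dexamethasone site in the 7 windows (horizontal axis, distance from the middle of the window in kb), with 1 row per list, the 3 MR/GR-cell lists above the 3 GR-cell lists. Black lines are the window ends and grey bands the part left after 50 kb is taken off each end; ticks stack through all 6 rows at 1 DUSP1, 2 NFKBIA and 1 ZFP36 site, and the TNIP1 panel has ticks of the GR cell only.

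Across the genes, the MR/GR-cell lists were all below the GR-cell lists at 5 of the 7 windows (NFKBIA, TNFAIP3, ZFP36, TNIP1 and ANXA1), and at no window were they all above. The same was true of 56.0% of the 16609 tiles with a dexamethasone peak, and of 72.4% of the tiles with at least 10 such peaks in all, a number that 6 of the 7 windows reached. The members' count is thus near the share of the genome at large. The windows together had 8.33 ± 3.21 peaks per list in the MR/GR cell and 25.7 ± 5.03 in the GR cell (mean ± SD, n = 3 lists each), a ratio of GR cell to MR/GR cell of 3.08, where whole lists had a ratio of 4.55. Without MR/GR list 2 the lines did not overlap at any of the 7 windows, but leaving out a list can only keep or raise that number.

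Ordered by GR-cell density, DUSP1 (5.76 ± 1.89 peaks per 100 kb, mean ± SD over 3 lists) was followed by TNFAIP3 (4.10 ± 1.18), ZFP36 (3.03 ± 0.525), NFKBIA (2.73 in each list), ANXA1 (2.56 ± 0.888), TNIP1 (1.96 ± 0.899) and IRAK3 (0.588 in each list). Neighbours in this order lay within the spread of their lists except the last pair, whose lists did not overlap. In the MR/GR cell the order was DUSP1 (2.12 ± 1.39), NFKBIA (1.82 in each list), ZFP36 (1.52 ± 0.525), TNFAIP3 (1.03 ± 0.888), ANXA1 (0.513 ± 0.444), IRAK3 (0.196 ± 0.340) and TNIP1 (no peak), and each neighbouring pair overlapped over its lists. Per 100 kb, the TNFAIP3 lists were all below the NFKBIA lists in the MR/GR cell and all above them in the GR cell, while they overlapped the ZFP36 lists in either line. In MR/GR lists 2 and 3 both windows held 2 peaks, so there the order between TNFAIP3 and NFKBIA comes from the window lengths, 130 and 110 kb.

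The share of each list that fell in the windows went the opposite way to the counts. It was 0.162%, 0.115% and 0.105% of the peaks of MR/GR-cell lists 1 to 3, and 0.0823%, 0.0809% and 0.0802% of those of GR-cell lists 1 to 3. The mean was 0.127% ± 0.0302 in the MR/GR cell and 0.0811% ± 0.00110 in the GR cell (SD, n = 3 lists each), and the lists did not overlap. The difference of 0.0460 percentage points was 0.0288 without MR/GR list 1, 0.0214 without the NFKBIA window and 0.0273 without the ZFP36 window. The 3 MR/GR-cell shares rest on 6, 12 and 7 peaks, and the Wilson 95% interval of list 1 ran from 0.0741% to 0.352%, while that of GR-cell list 1 ran from 0.0580% to 0.117%. The interval of each MR/GR-cell list overlapped those of all 3 GR-cell lists. Against an even spread over the genome, the windows had 4.23 ± 1.00 times as many peaks in the MR/GR cell and 2.70 ± 0.0366 times in the GR cell (SD, n = 3 lists each).

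By gene, peaks per 10000 peaks of the list were higher in every MR/GR-cell list than in every GR-cell list at 3 windows, DUSP1, NFKBIA and ZFP36, where 11.6% of tiles did so. They were lower in every MR/GR-cell list at 1 window, TNIP1, where 38.3% of tiles did so. Both shares are of the tiles with a dexamethasone peak. A tile can be higher on this scale only with a peak in all 3 MR/GR-cell lists, and 69.9% of all 23791 tiles had none in that line. The share among tiles with at least 10 peaks was not taken, so the 3 windows were not set against tiles as dense. NFKBIA had 5.39, 1.91 and 3.00 per 10000 in lists 1 to 3 of the MR/GR cell, and 0.797, 0.970 and 1.15 in those of the GR cell (exact permutation p = 0.1, two-sided). DUSP1 averaged 3.17 ± 0.585 per 10000 in the MR/GR cell and 1.99 ± 0.543 in the GR cell (SD, n = 3 lists each). ZFP36 averaged 2.93 ± 2.13 in the MR/GR cell and 1.06 ± 0.0875 in the GR cell (SD, n = 3 lists each). The high values of list 1 at NFKBIA and ZFP36 are 2 peaks each in the shortest treated list. TNFAIP3, IRAK3 and ANXA1 overlapped on this scale, with differences of -0.0296, -0.00493 and 0.138 per 10000. The direction between the lines at DUSP1, NFKBIA, ZFP36 and ANXA1 therefore depends on whether peaks are counted or scaled to the length of the list.

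**Figure D3:**
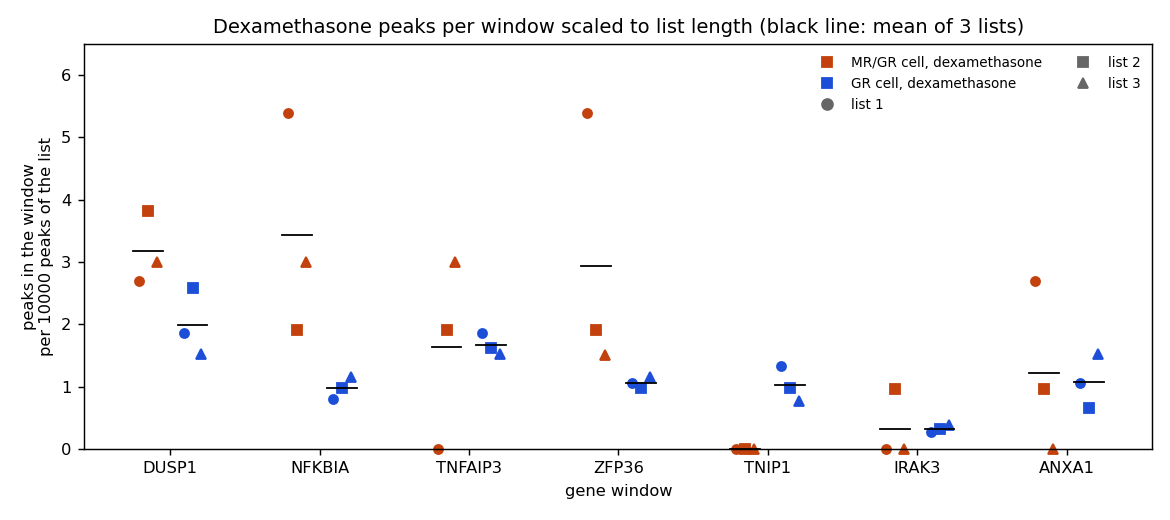
Dexamethasone peaks in each gene window per 10000 peaks of the same list (vertical axis), MR/GR cell left of GR cell, with list numbers as marker shapes and means as black lines. MR/GR-cell points are all above GR-cell points at DUSP1, NFKBIA and ZFP36, and all at 0 at TNIP1.

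A line was counted as holding a site if a peak was called there in 2 or 3 of its dexamethasone lists. The MR/GR cell held 9 sites in the windows and the GR cell held 26. By gene, the MR/GR cell held 2 sites at DUSP1, 2 at NFKBIA, 2 at TNFAIP3, 2 at ZFP36, 1 at ANXA1 and none at TNIP1 or IRAK3. The GR cell held 7 at DUSP1, 3 at NFKBIA, 5 at TNFAIP3, 3 at ZFP36, 3 at TNIP1, 1 at IRAK3 and 4 at ANXA1. Of the 26 GR-cell sites, 7 were also held by the MR/GR cell, or 26.9% (Wilson 95% interval 13.7 to 46.1), where all GR-cell sites gave 17.9%, a value inside that interval. Without MR/GR list 2, the longest of that line, a site had to be in both lists left. The share was then 15.4%, where all sites gave 10.5%. That rule is stricter, so the share could not have risen above 26.9%. The 7 shared sites were 1 at DUSP1, 2 at NFKBIA, 2 at TNFAIP3, 1 at ZFP36 and 1 at ANXA1. Of the 9 MR/GR-cell sites, 2 were not held by the GR cell, the DUSP1 site at 172216929 and the ZFP36 site at 39903068, where 9.05% of all MR/GR-cell sites were not.

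Sites found in every GR-cell list were those most often held by the MR/GR cell. Of the sites in 3 GR-cell lists, 7 of 18 were held by the MR/GR cell, or 38.9% (20.3 to 61.4), and none of 8 sites in 2 GR-cell lists were, which allows a share of up to 32.4% by its Wilson interval. Among all sites of the genome the shares were 22.5% for 3 lists and 3.47% for 2. Of the 7 sites in 1 GR-cell list, the 1 held was the ZFP36 site at 39903068, a share of 14.3% (2.57 to 51.3) where all sites gave 1.86%, a value below that interval. That contrast rests on 1 site, and the intervals take neighbouring sites as separate counts, so no departure from the genome is read from it. Of the 18 sites in 3 GR-cell lists, 4 were in every list of the MR/GR cell as well, where the genome gave 13.2%. A further 10 of the 18, with at least 1 at each of the 7 genes, were in none of its lists, where the genome gave 65.6%. Singly, MR/GR lists 1 to 3 had 5, 8 and 6 of the 18.

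**Figure D4:**
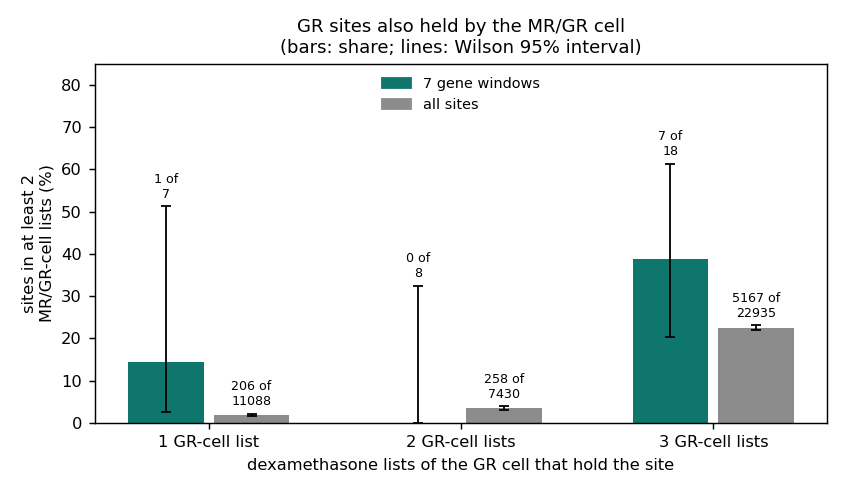
Share of sites held by at least 2 MR/GR-cell lists (vertical axis, percent) by the number of GR-cell lists with the site (horizontal axis), for the 7 gene windows and for all sites. Lines are Wilson 95% intervals and labels give the counts. The intervals of the windows reach over the genome value for 2 and for 3 lists, where the shares were 0 of 8 and 7 of 18. For 1 list the interval lies above it, but the share was 1 of 7 and rests on 1 site.

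Where the lines shared a site, they called it at nearly the same place. Over the 10 sites with a peak in each line, the mean centres of the lines were 3 to 50.2 bp apart, with a median of 25 bp, and the median over 9379 such sites of the genome was 24.8 bp. The 4 sites in all 6 lists had centres within 41 to 76 bp over the lists, and a stretch of 217 to 272 bp that all 6 peaks covered. Peaks were 280 to 304 bp wide in the MR/GR-cell dexamethasone lists and up to 424 bp in those of the GR cell, so these offsets are small against the peaks. Only overlapping peaks were merged into a site, so that rule itself limits how large the offsets could be.

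In the middle parts of the windows the MR/GR cell held 3 of 10 sites of the GR cell (at DUSP1, NFKBIA and TNFAIP3), and in the flanks it held 4 of 16. The windows' ends also set some counts. Just outside the left end of the TNFAIP3 window, by 4.01 kb, a site at chromosome 6, 138125735 to 138126220, was in all 6 lists, and the nearest site inside, by 2.72 kb, was in 5. Sites in the 3 lists of the GR cell alone lay 3.97 kb beyond the right end of that window and 6.72 kb beyond the left end of the NFKBIA window.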

How the data were processed

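The authors deposited 12 peak lists that give each peak by its position only, without height or p-value. The tools named, per the submitters' processing notes, were HOMER 4.8.3, Picard 1.115, SAMtools 1.3.1, Bowtie and Trim Galore 0.4, on the hg19 build. No source at hand stated their roles, the calling threshold or which input stood behind each list. The 2 input samples were not used. The input of the GR cell is listed with a dose of 100 nM and that of the MR/GR cell with 0 nM. If peaks were called against the input of the same line, the controls differed in treatment between the lines. Whether this affects the comparison of the lines was not tested.

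Peaks were assigned to windows by their centre. Sites were merged from dexamethasone peaks that overlapped by at least 1 bp. Lists served as replicates (n = 3), and differences between group means were tested by exact permutation, two-sided. The 7 genes, their windows and all lists were chosen with earlier results of these data known. All members are named; sites were named by the number of lists, at most 4 per gene, plus those held by the MR/GR cell only. Tiles of 130 kb spanned each chromosome up to its last peak. On 5000 simulated sites, 100% of the totals held by each line and by both were recovered for the comparison of the dexamethasone lines. The simulated sites were given lists by the same rule that calls them, so this checks the counting alone. They were also set farther apart than the nearest sites here, which lay 0.940 kb from each other. Promoters come from RefSeq (GRCh38.p14). A pathway list of further genes was not analysed here, since an hg19 annotation was not used. Python 3.11.15, numpy 2.4.6, SciPy 1.17.1 and matplotlib 3.10.9 were used.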

Additional observations from a re-analysis of the deposited data

How the results depend on the processing

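Of 354 alternatives, 333 kept their direction, or their count within 1.5-fold, or stayed within their spread or Wilson interval. Many of these could hardly change. All vehicle counts were 0, so no difference of dexamethasone minus vehicle could turn negative, and no p could pass 0.05 under any setting. The count of 333 is therefore not a measure of how firm the results are. Scaled to 10000 peaks of the list, the MR/GR-cell lists were all lower at 1 window instead of 5, and the differences of DUSP1 (1.18), NFKBIA (2.46), ZFP36 (1.87) and ANXA1 (0.138) turned positive. With 25 kb off each window end, the NFKBIA difference was 0, the DUSP1 difference -1 instead of -4 and the TNFAIP3 difference -2.67 instead of -4, and the lines were apart at 4 windows. With 50 kb added at each end, the differences were -2 at NFKBIA, -7 at TNFAIP3 and -1.33 at IRAK3. Leaving out 1 list gave 5 to 7 windows with lower MR/GR-cell lists. That count could not fall below 5, since fewer lists can only keep or raise the number of windows without overlap. Dexamethasone lists were all above vehicle lists at 3 to 4 windows in the MR/GR cell and 7 in the GR cell. Here too, leaving out a list could only keep or raise the count. The difference in share of list, 0.0460 percentage points, was 0.0773 with 50 kb added at each end, 0.0214 without the NFKBIA window and 0.0288 to 0.0570 without 1 list, lowest without MR/GR list 1; the cause was not tested. With 1 list left out, a site had to be in both remaining lists of that line. Leaving out an MR/GR-cell list could then only keep or lower the share of GR-cell sites held. Leaving out a GR-cell list could only keep or cut the number of GR-cell sites. The share was 15.4% to 38.9% without 1 list, lowest without MR/GR list 2 and highest without GR-cell list 1. All sites gave 10.5% and 22.0% in those settings. The share was 22.2% with all 3 lists and 30.3% with at least 1. Sites of the MR/GR cell fell to 4 with all 3 lists required, against 9. The list numbers come from the lists and not from the labels. Over tiles, deviations of same-numbered lists correlated by -0.0530, -0.0403 and 0.0135. The counts behind these values were not scaled to the length of the list, so they cannot decide whether the numbers pair the lines. Under a replicate block by list number, 6 windows were lower in the MR/GR cell in each pair, and no p below 0.25 is possible. With 1 list left out, no p below 0.2 is possible.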
